A study of Mus musculus with 24 samples.

Results

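The cell-surface heparan sulfate proteoglycans of pancreatic stellate cells (PSC) were followed at the transcript level: the syndecans Sdc1, Sdc2, Sdc3 and Sdc4 and the glypicans Gpc1, Gpc2, Gpc3, Gpc4 and Gpc6. These 9 genes were taken by name from a table of 53801 genes. All 9 were found in the table, and 8 of them measured at least 38.1 FPKM (fragments scaled to transcript length and to the library's total) in each of the 24 libraries. Gpc2 was the exception and stayed between 0.383 and 2.26 FPKM. The remaining family gene Gpc5, which was not among the 9, never exceeded 1 fragment in a library.

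PSC are the lipid-storing mesenchymal cells of the pancreas that can become fibroblasts of the tumour stroma. They came from young adult wild-type C57BL/6J mice, with several pancreata pooled per isolation, and grew on inserts with 1 µm pores above KPC cells or without them. KPC is a mouse pancreatic cancer line from 1 animal that carried p48-Cre and Trp53 R172H/+ behind a lox-stop-lox cassette, so the tumour cells in every co-culture share that origin, and p48-Cre is active in pancreatic progenitor cells. In the standard model the KPC cells lay at the bottom of the well, in the inverse model on the lower face of the same membrane that carried the PSC, where they had been seeded a day before the PSC, so that both cell types already shared the insert for a day when the inverse experiment began. PSC of each co-culture and of its mono-cultured control were sequenced after 24 h and 72 h, which gave 8 groups of 3 libraries. The study detected no physical contact between the cell types through 1 µm pores. Before the start, PSC of the standard model were plated in another medium than those of the inverse model. Libraries of the standard model were made from 450 ng of RNA and those of the inverse model from 120 ng. Model, RNA input, plating medium and time shared with KPC cells therefore cannot be told apart.

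Syndecans are transmembrane proteins with a short cytoplasmic tail, whereas glypicans are held in the outer leaflet of the membrane by a glycosylphosphatidylinositol anchor. Both carry heparan sulfate chains that bind growth factors, morphogens and matrix proteins. Their ectodomains can be released, syndecans by metalloproteases and glypicans by enzymes that cleave them. In connective tissue cells Sdc4 sits in focal adhesions beside integrins, and glypicans tune Wnt, hedgehog, BMP and FGF signalling.

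The libraries held 15932732 to 24798759 counted fragments. All 10 fibroblast or stellate markers examined (among them Col1a1, Col1a2, Pdgfrb, Vim and Acta2) exceeded 1 FPKM in every library. Of 6 endothelial markers none passed 1 FPKM in 3 libraries, while all 8 macrophage markers and 5 of 6 adipocyte markers did. The standard libraries numbered 1 stood apart from their group mates for several of the 9 genes, and same-numbered standard libraries deviated together, so values with the number as a block are given for that model. In bulk RNA, fewer cells of a type and less RNA per cell cannot be told apart.

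On GRCm38 (GENCODE M21) Sdc4 (ENSMUSG00000017009) lies at chr2:164424247-164443887 on the minus strand and Sdc1 (ENSMUSG00000020592) at chr12:8771323-8793715 on the plus strand. Sdc2 (ENSMUSG00000022261) lies at chr15:32920723-33034935 and Sdc3 (ENSMUSG00000025743) at chr4:130792537-130826319, both on the plus strand. Gpc3 (ENSMUSG00000055653, chrX:52272426-52613950) and Gpc4 (ENSMUSG00000031119, chrX:52053021-52165252) are both on the minus strand. Gpc1 (ENSMUSG00000034220, chr1:92831645-92860779) and Gpc6 (ENSMUSG00000058571, chr14:116925315-117976544) are on the plus strand, and Gpc2 (ENSMUSG00000029510, chr5:138273655-138280005) is on the minus strand. Reads were counted over exons of the whole gene, so isoforms were not separated, and exons of Sdc3 overlap the antisense genes Gm12970 and Gm26716 over 463 bases in all.

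Sdc4 had the highest mean level of the 9 genes (237 FPKM over 24 libraries), followed by Sdc1 (212 FPKM) and Gpc3 (199.6 FPKM). Sdc3 (105 FPKM), Gpc1 (79.5 FPKM), Gpc4 (78.1 FPKM), Gpc6 (71.7 FPKM) and Sdc2 (63.4 FPKM) formed a middle tier, and Gpc2 averaged 1.17 FPKM. Set among the 14452 genes with more than 1 FPKM in at least 3 libraries, Sdc4 lay above 97.3% of them, Gpc3 above 96.8%, Sdc2 above 87.4% and Gpc2 above 12.9%. The order between genes depends on the gene length in the FPKM. The deposited values fit the mean length of a gene's transcripts, and with the union of all its exons the order began with Gpc3 (152 FPKM), Sdc4 (151.6 FPKM) and Sdc1 (81.3 FPKM). Comparisons of 1 gene between libraries do not depend on that choice.

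**Figure D1:**
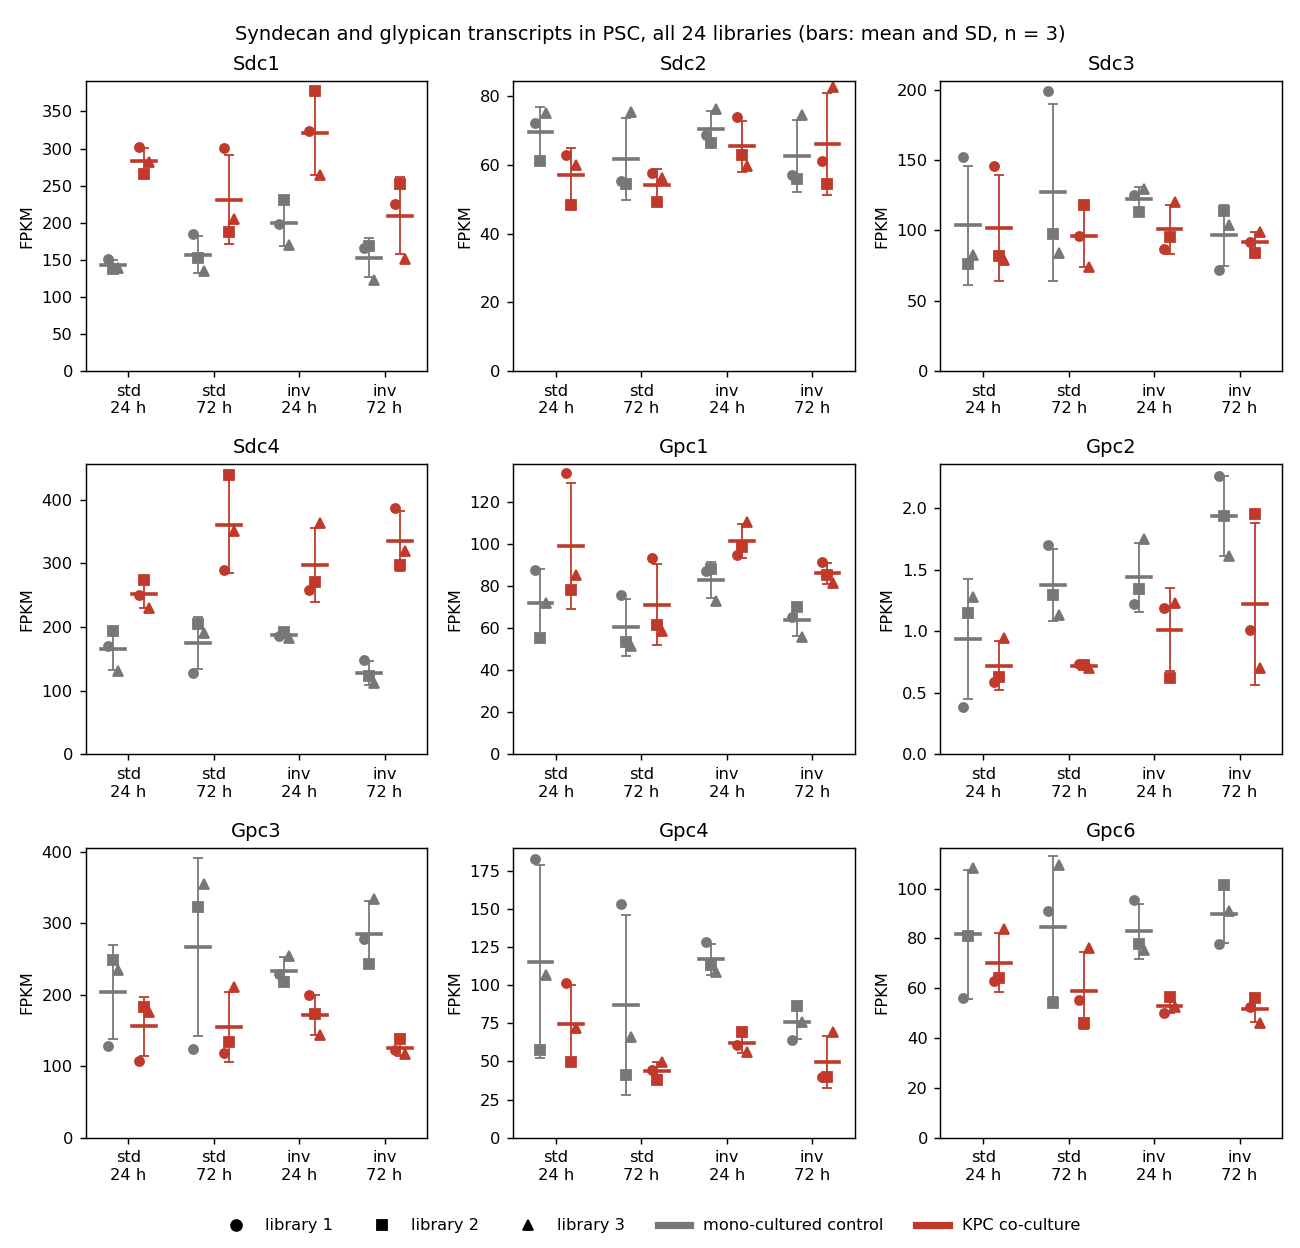
FPKM (vertical axes, linear and starting at 0) of the 9 genes in the standard (std) and inverse (inv) model after 24 h and 72 h, with grey symbols for mono-cultured controls, red symbols for KPC co-cultures, 1 symbol shape per library number and bars for mean and SD of 3 libraries. Sdc4 lay between 231 and 439 FPKM in the 12 co-culture libraries and between 112 and 205 FPKM in the 12 controls.

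The mono-cultured PSC expressed Gpc3 most strongly of the 9 genes by group mean in all 4 control groups, from 203 FPKM (standard, 24 h) to 285 FPKM (inverse, 72 h). Only in the inverse 72 h controls did every Gpc3 value lie above every value of the next gene, Sdc1. In co-culture the order changed. Sdc1 and Sdc4 held the upper places at 24 h with overlapping values in both models, and Sdc4 led at 72 h with means of 335 FPKM (inverse) and 360 FPKM (standard). Sdc4 stood clear of Sdc1 at 72 h in the inverse model only, since the libraries overlapped in the standard model. Sdc2, Gpc6, Gpc4 and Gpc1 overlapped with a neighbour in rank in most groups.

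The study asked how the distance between PSC and tumour cells shapes the stellate cell transcriptome, so co-cultured PSC were set against the mono-cultured PSC of the same model and time. In the inverse model at 24 h, 3 of the 9 genes were called (limma, adjusted p under 0.05) against a background of 2.47% of 12827 genes. Sdc4 was the member called higher (background in that direction 1.08%), and Gpc4 and Gpc6 were called lower (background 1.39%). At 72 h, 4 of the 9 were called against 12.8% of 13066 genes, with Sdc4 and Gpc1 higher (background 3.27%) and Gpc3 and Gpc6 lower (background 9.57%). None of 8 genes tested at 24 h and none of 9 at 72 h was called in the standard model, in a background of 0% at either time. At an unadjusted p under 0.05 there were 371 of 12859 genes at 24 h and 800 of 12863 genes at 72 h in that model, with 2 of the 9 genes each time (Sdc1 and Sdc4).

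With the replicate number as a block, 157 genes (1.22%) passed in the standard model at 24 h, Sdc1 and Sdc4 among them, and 1 gene (0.00777%) at 72 h, which was none of the 9. The median log2 fold change over the 9 genes was −0.29 at 24 h and −0.05 at 72 h in the inverse model, beside −0.06 and −0.16 over all genes tested. Scaling every library by its median gene ratio brought the latter to −0.01 at both times, and the share of calls that were higher then went from 43.8% to 55.2% (24 h) and, at the later time, from 25.4% to 52.1%. Under that scaling the 72 h values of the called genes were 1.55 for Sdc4, 0.60 for Gpc1, −1.01 for Gpc3 and −0.63 for Gpc6, all still called. Because 3 against 3 libraries cannot give an exact permutation p below 0.1, no such p is given for single genes.

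**Figure D2:**
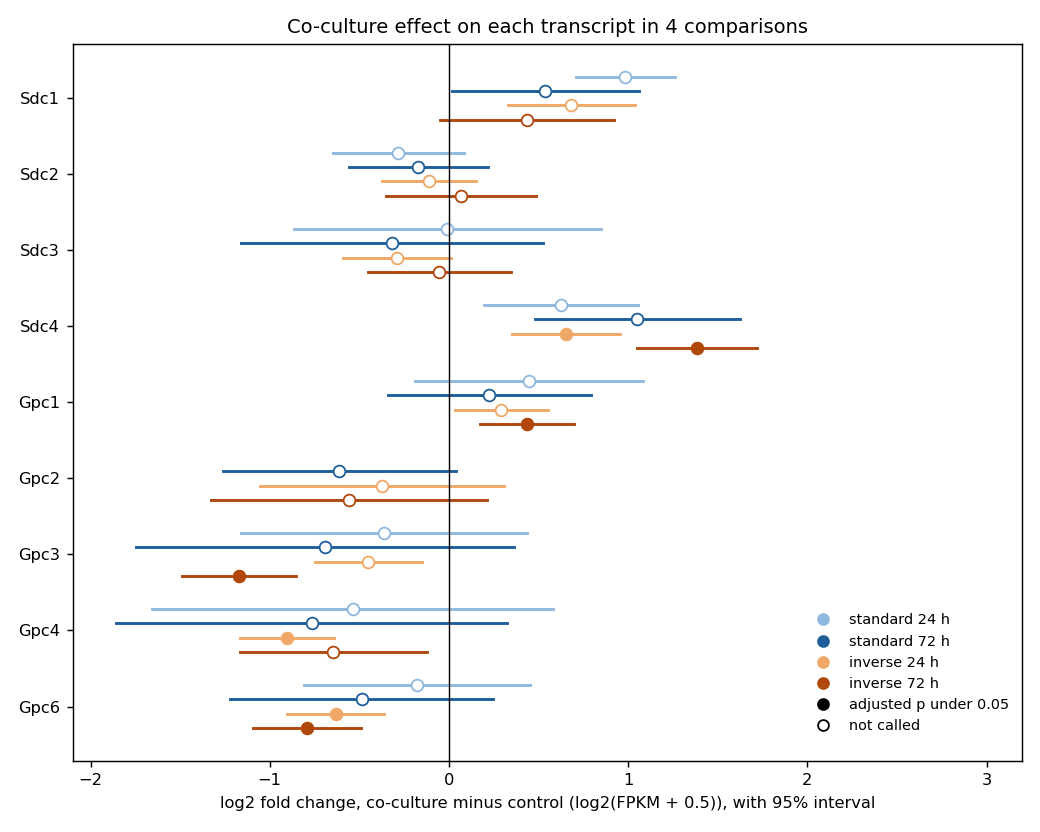
Log2 fold change of co-culture over control on the log2(FPKM + 0.5) scale (horizontal axis) for each gene, with the 95% interval of limma as a line and filled circles for adjusted p under 0.05. Sdc1, Sdc4 and Gpc1 lie right of 0 and Gpc2, Gpc3, Gpc4 and Gpc6 left of 0 in every comparison shown, filled circles occur in the inverse model only, for Sdc4, Gpc1, Gpc3, Gpc4 and Gpc6, and Gpc2 was not tested in the standard model at 24 h.

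Sdc4, the syndecan of focal adhesions, did not overlap between co-culture and control in any of the 4 comparisons. In the standard model, whose same-numbered libraries deviated together, it was higher in 6 of 6 pairs, by 1.41-fold to 2.27-fold. Here and below, the 6 pairs are 3 library numbers at 24 h and 72 h. Same-numbered standard libraries also deviated together over time (correlations 0.381 to 0.766), so the 6 pairs are not independent. How many of all genes go 1 way in all 6 pairs was not counted. In the inverse model at 72 h the co-cultures measured 388, 298 and 320 FPKM (libraries 1 to 3) and the controls 149, 123 and 112 FPKM. Every co-culture value lay far above every control value. Sdc4 rose 2.61-fold there (log2 fold change 1.39 ± 0.14 SE, adjusted p = 0.0039). It remained called without any single library (adjusted p 0.00465 to 0.0264) and under each of 10 other settings (0.00106 to 0.0186).

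At 24 h in the inverse model Sdc4 measured 258, 271 and 364 FPKM in co-culture and 186, 192 and 183 FPKM in the controls. Groups did not overlap, and library 3 of the co-culture was the high one. The rise was 1.57-fold (log2 0.65 ± 0.13 SE, adjusted p = 0.0431). Single libraries decided that call: the adjusted p was 0.101 without co-culture library 2 and 0.153, 0.136 and 0.175 without control libraries 1, 2 and 3. It was also lost under 6 of 10 other settings, with an adjusted p of 0.0563 (median-ratio scaling) to 0.245 (all 24 libraries in 1 fit).

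Standard inserts gave Sdc4 values of 251, 274 and 231 FPKM in co-culture against 169.8, 194 and 131 FPKM in the controls at 24 h. At 72 h it measured 290.04, 439 and 351 FPKM against 128, 205 and 191 FPKM. Co-cultures and controls did not overlap at either time. The log2 differences were 0.63 ± 0.18 SE (adjusted p = 1) and 1.05 ± 0.24 SE (adjusted p = 0.723), so neither passed without the block. With same-numbered libraries as blocks the 24 h difference passed (adjusted p = 0.0293) and the 72 h difference did not (adjusted p = 0.163).

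The promoters of Sdc4 and Sdc1, which were higher in all 6 standard pairs, and of Gpc3, which was lower in all 6, are shown as sequence context. Gpc4 was also lower in all 6 and has an entry, but its promoter is not printed. Of the 9 genes 6 had an entry in the RefSeq promoter table (GRCm38.p6); Sdc2, Gpc1 and Gpc6 had none. Each line below gives bases upstream of the RefSeq start, 5′ to 3′ on the gene's strand. For Sdc4 they are chr2:164443189-164443438 (minus strand, 250 bases), where a longer GENCODE transcript places an intron. For Sdc1 they are chr12:8771146-8771322 (plus strand, the 177 bases before the GENCODE gene start, which leaves out the last 73 bases before the RefSeq start), and for Gpc3 chrX:52613975-52614224 (minus strand, 250 bases).
Sdc4: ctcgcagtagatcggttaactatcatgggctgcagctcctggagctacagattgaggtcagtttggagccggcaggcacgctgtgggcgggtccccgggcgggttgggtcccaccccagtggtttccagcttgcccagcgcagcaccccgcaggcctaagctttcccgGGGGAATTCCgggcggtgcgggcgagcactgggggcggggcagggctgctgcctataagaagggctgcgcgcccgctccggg
Sdc1: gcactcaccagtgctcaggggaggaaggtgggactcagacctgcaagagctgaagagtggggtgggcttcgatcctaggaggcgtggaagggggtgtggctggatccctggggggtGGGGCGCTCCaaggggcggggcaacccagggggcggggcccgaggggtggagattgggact
Gpc3: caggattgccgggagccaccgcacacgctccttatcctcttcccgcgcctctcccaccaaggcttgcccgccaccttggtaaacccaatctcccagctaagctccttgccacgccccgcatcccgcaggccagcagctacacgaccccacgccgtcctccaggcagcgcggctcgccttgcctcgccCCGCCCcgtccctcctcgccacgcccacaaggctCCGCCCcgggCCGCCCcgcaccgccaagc
Capitals mark the NF-kB consensus in Sdc4 and Sdc1 and the GC box GGGCGG (either strand) in Gpc3. The 4 motifs, chosen after the Sdc4 promoter had been read, were searched on both strands in the 250 bases before each start. The NF-kB consensus matched once in Sdc4 (first base 82 before the start) and once in Sdc1 (134 before the RefSeq start, 61 before the end of its line), and in 7.25% of all 32851 windows. GGGCGG occurred 4 times in Sdc4, 3 times each in Sdc1, Sdc3, Gpc2 and Gpc3 and once in Gpc4, against 32.7% of windows with a match. The Sdc1 line holds 2 of its 3. The AP-1 letters TGANTCA (6.75% of windows) and TATAAA (12.4%) matched in none of the 6. These matches are letters in a window, and binding was not measured.

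Sdc1, the syndecan best known from epithelia and plasma cells, was also higher in 6 of 6 standard pairs, by 1.24-fold to 2.02-fold. Standard co-cultures at 24 h measured 301, 266 and 281 FPKM and the controls 151, 138 and 139.6 FPKM. The 3 same-numbered ratios lay close together, between 1.93 and 2.02. The log2 difference was 0.98 ± 0.11 SE (unadjusted p = 0.000106, adjusted p = 0.634), and with the block Sdc1 passed (adjusted p = 0.0113). At 72 h the standard values were 300.2, 188 and 205 FPKM against 184, 152 and 135 FPKM (log2 0.54, adjusted p = 0.779, with the block 0.335).

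Inverse co-culture gave Sdc1 values of 324, 377 and 264 FPKM at 24 h, beside 199, 231 and 169.6 FPKM in the controls. The groups did not overlap, yet the difference missed the threshold (log2 0.68 ± 0.16 SE, adjusted p = 0.0624). It passed without co-culture library 3 (adjusted p = 0.0159) and under 3 of 10 other settings, and did not pass without any of the other 5 libraries (up to 0.236) or under the remaining 7 settings (up to 0.245). At 72 h the values were 225, 252 and 152 FPKM against 166, 169 and 123 FPKM, with overlap, and the difference was 0.44 ± 0.21 SE (adjusted p = 0.195). Without co-culture library 3 it became 0.65 (adjusted p = 0.0365).

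Summed epithelial markers lay above the controls in the inverse co-cultures at 24 h and overlapped with them at 72 h. Their part in the Sdc1 difference was not tested. Only 2 of the 10 markers passed the filter in this model. None was called at 24 h and 1 at 72 h, when 12.8% of all genes were called. The 10 epithelial markers summed to 3.46, 45.9 and 8.51 FPKM in the inverse co-cultures at 24 h and to 1.27 to 2.03 FPKM in the controls. At 72 h the sums were 4.77 to 11.1 FPKM against 2.50 to 6.71 FPKM. Krt8 was at 0 in all 6 inverse controls and at 15.2 FPKM in co-culture library 2 at 24 h. That library also had the highest Sdc1 value of the series (377 FPKM), beside 324 FPKM in library 1 with its marker sum of 3.46 FPKM. Krt19 was called higher at 72 h (log2 2.03, adjusted p = 0.0189). The adhesion marker Epcam was at 0 in the 72 h libraries of the inverse model. For the standard model the sums were 2.00 to 4.10 FPKM in the 24 h co-cultures and 1.46 to 2.75 FPKM in the controls. Krt8 stayed at or below 0.291 FPKM in those 6 libraries.

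**Figure D3:**
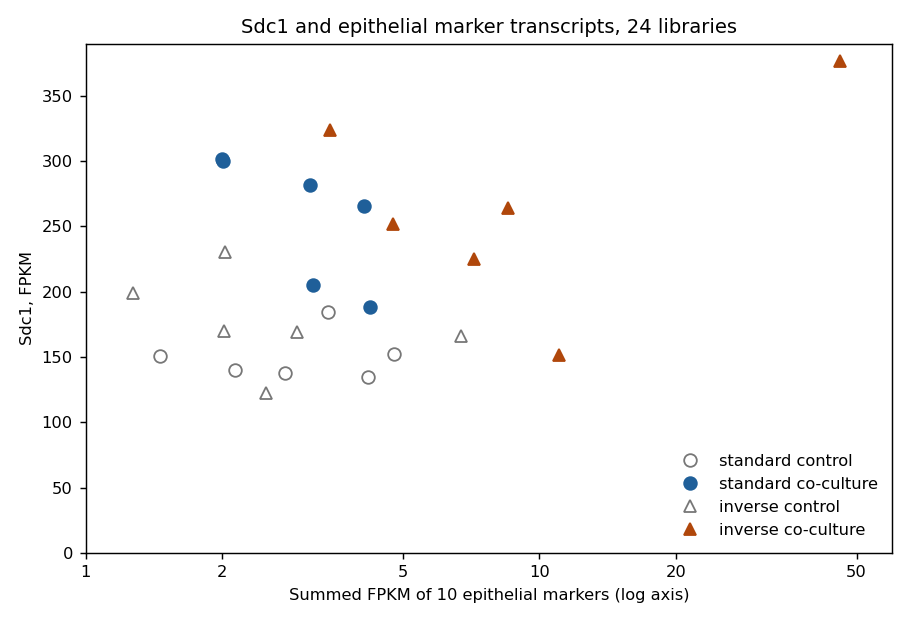
Sdc1 in FPKM (vertical axis, from 0) against the summed FPKM of 10 epithelial markers (horizontal log axis) in 24 libraries, circles for the standard and triangles for the inverse model, filled for co-culture and open for controls. Standard co-cultures lie above the standard controls in Sdc1 at marker sums of 2.00 to 4.23 FPKM, a range the controls share, and the inverse co-culture library at 45.9 FPKM of marker sum has the highest Sdc1 value, 377 FPKM.

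Sdc2, the syndecan typical of mesenchymal cells, changed in no comparison by the test. Its 24 values lay between 48.5 and 82.7 FPKM. The 95% interval of its log2 difference in the inverse model was −0.37 to 0.15 at 24 h and −0.35 to 0.49 at 72 h. Standard co-culture gave estimates of −0.28 at 24 h and −0.17 at 72 h, and co-culture was lower in all 3 pairs at 24 h. None of these passed with or without the block.

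Sdc3, the syndecan with the longest ectodomain and best known from neural tissue, likewise passed no test of co-culture. Its standard values hung on the libraries numbered 1, which measured 152 FPKM (control, 24 h), 145 FPKM (co-culture, 24 h) and 199 FPKM (control, 72 h) where the other control and co-culture libraries at those times lay between 73.9 and 118 FPKM. The standard 72 h difference was −0.32 (interval −1.16 to 0.52), and without the libraries numbered 1 it was 0.04. The inverse difference was −0.29 (interval −0.59 to 0.01) at 24 h and −0.05 at 72 h, where median-ratio scaling turned the sign to 0.11.

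Gpc1, a broadly expressed glypican that acts as a co-receptor for FGF family ligands, was higher in co-culture in 6 of 6 standard pairs, by 1.13-fold to 1.52-fold. At 72 h the inverse model gave 91.3, 85.2 and 81.7 FPKM in co-culture and 65.5, 69.9 and 55.6 FPKM in the controls. The groups did not overlap, and Gpc1 rose 1.35-fold (log2 0.44 ± 0.11 SE, adjusted p = 0.0433). Leaving out co-culture library 1 or 2 gave an adjusted p of 0.144 or 0.0753, and leaving out control library 1, 2 or 3 gave 0.113, 0.0527 or 0.145. Among these only the fit without co-culture library 3 kept the call. It was also lost under 4 of 10 other settings: without a filter, without the intensity trend, with the replicate block (0.0652) and with all 24 libraries in 1 fit (0.204).

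At 24 h in the inverse model the values were 94.8, 98.7 and 110.4 FPKM against 87.0, 88.2 and 72.9 FPKM (log2 0.29, adjusted p = 0.266). The standard model showed a wide spread, with library 1 high in both groups: 134, 78.3 and 85.1 FPKM against 87.8, 55.3 and 72.2 FPKM at 24 h, and 93.4, 61.6 and 58.6 FPKM against 75.7, 53.6 and 51.7 FPKM at 72 h. The log2 differences were 0.45 and 0.23, and neither passed (with the block, adjusted p = 0.0853 and 0.513). Exons of Gpc1 overlap the opposite-strand gene Ankmy1 over 977 bases, and counting without strand cannot separate reads of that stretch.

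Gpc3, a glypican that restrains hedgehog and growth signalling in development and lies near Gpc4 on the X chromosome, was below its control in 6 of 6 standard pairs, with ratios of 0.416 to 0.957. Inverse libraries at 72 h measured 122, 138 and 117 FPKM in co-culture and 278, 243 and 334 FPKM in the controls. The highest co-culture value lay well below the lowest control value. Gpc3 fell to 0.444 of the control level (log2 −1.17 ± 0.14 SE, adjusted p = 0.00478), and it stayed called without any single library (adjusted p 0.00632 to 0.0355) and under each of 10 other settings (0.00186 to 0.0391).

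At 24 h in the inverse model Gpc3 measured 199.6, 173 and 144 FPKM against 229, 217 and 254 FPKM. There was no overlap, but the difference of −0.45 ± 0.13 SE did not pass (adjusted p = 0.136). Standard values at 24 h were 108, 183 and 176 FPKM against 128, 248 and 235 FPKM, and at 72 h 119, 134 and 211 FPKM against 124, 322 and 354 FPKM. The control numbered 1 was the low one at both times and sat within the co-culture range. The log2 differences were −0.36 and −0.69, and without the libraries numbered 1 they were −0.43 and −1.0045, none of which passed (with the block, adjusted p = 0.0846 and 0.426).

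Markers of other cells fell beside Gpc3 in the inverse model at 72 h, and their part in its fall was not tested. The 6 adipocyte markers summed to 22.99 to 97.3 FPKM in the co-cultures and 398 to 839 FPKM in the controls, with 4 of 5 tested called lower, such as Plin1 (a lipid droplet coat protein, log2 −4.32). The 8 macrophage markers summed to 49.7 to 79.3 FPKM against 121 to 228 FPKM, with 5 of 7 tested called lower, such as Adgre1 (log2 −1.75). Of all genes 9.57% were called lower at that time. At 24 h, when Gpc4 and Gpc6 were called lower, no marker of these lists was called, with median log2 fold changes of −0.43 (adipocyte) and −0.52 (macrophage). The macrophage sums were then 24.1 to 79.9 FPKM in co-culture and 68.6 to 83.3 FPKM in the controls, and the adipocyte sums 81.4 to 184 FPKM and 155 to 239 FPKM.

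Gpc4, a glypican of Wnt and FGF signalling, was also lower in 6 of 6 standard pairs, with ratios of 0.288 to 0.933. In the inverse model at 24 h it measured 61.0, 69.4 and 56.5 FPKM in co-culture and 128, 113 and 109 FPKM in the controls. The groups lay far apart, and Gpc4 fell to 0.535 of the control (log2 −0.90 ± 0.11 SE, adjusted p = 0.0079). The call held without any single library (adjusted p 0.00719 to 0.0448) and under 9 of 10 other settings, the exception being a fit of all 24 libraries together (0.547).

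At 72 h in the inverse model Gpc4 measured 39.8, 39.5 and 69.2 FPKM against 64.3, 86.4 and 76.1 FPKM. Co-culture library 3 reached into the control range, and the difference of −0.65 ± 0.23 SE missed the threshold (adjusted p = 0.0957). Without that library it was −0.91 (adjusted p = 0.00973). The standard control numbered 1 was far above the others, with 183, 57.2 and 107 FPKM at 24 h and 153, 40.9 and 66.3 FPKM at 72 h, beside co-cultures of 102, 49.7 and 71.8 FPKM and of 44.1, 38.1 and 49.5 FPKM. The log2 difference at 72 h was −0.77 and, without the libraries numbered 1, −0.26. Neither passed (with the block, adjusted p = 0.492).

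Gpc6, a close relative of Gpc4 in sequence, was lower in 5 of 6 standard pairs. Inverse co-cultures and controls measured 50.3, 56.4 and 52.5 FPKM against 95.5, 77.9 and 75.3 FPKM at 24 h. At 72 h they measured 52.6, 56.1 and 45.9 FPKM against 77.6, 101 and 90.9 FPKM. Co-cultures and controls did not overlap at either time. Gpc6 fell to 0.645 of the control at 24 h (log2 −0.63 ± 0.12 SE, adjusted p = 0.0317) and to 0.577 at 72 h (log2 −0.79 ± 0.13 SE, adjusted p = 0.0111).

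The 72 h call of Gpc6 was lost only without control library 3 (adjusted p = 0.0562) among the libraries. The 24 h call was lost without co-culture library 1 or 2 (adjusted p = 0.0592 and 0.0873), without control library 1, 2 or 3 (0.107, 0.0967 and 0.0861) and under 6 of 10 other settings (up to 0.450). Standard libraries gave Gpc6 values of 62.7, 64.2 and 83.9 FPKM against 56.2, 80.8 and 108 FPKM at 24 h, and 55.2, 46.1 and 76.0 FPKM against 91.0, 53.9 and 109 FPKM at 72 h. These groups overlapped, and no difference passed (log2 −0.18 and −0.49).

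Gpc2, a glypican of developing neurons, rested on 22 to 132 fragments per library and was below the filter in the standard 24 h comparison. At 72 h inverse libraries measured 1.01, 1.95 and 0.699 FPKM against 2.26, 1.93 and 1.61 FPKM, with overlap (log2 −0.56, adjusted p = 0.285). Standard libraries at 72 h measured 0.731, 0.723 and 0.697 FPKM against 1.70, 1.29 and 1.13 FPKM, without overlap but not past the test (log2 −0.61, adjusted p = 0.779). Its exons overlap the same-strand gene Gm43720 over 2376 bases, so its counts are uncertain.

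The sums over each family follow its most abundant genes, Sdc1 and Sdc4 among the syndecans and Gpc3 among the glypicans, and not every member: Sdc2 and Sdc3 were not called, and Gpc1 was called higher. The 4 syndecans summed to 702 ± 57.2 FPKM (SD, n = 3) in the inverse co-cultures at 72 h and to 440.0 ± 24.8 FPKM in the controls, while the 5 glypicans summed to 314 ± 6.94 FPKM against 516 ± 37.2 FPKM. The sum of all 9 was 1016 ± 52.7 FPKM against 956 ± 21.2 FPKM. Syndecans thus made up 60.9% to 73.9% of the 9-gene sum in the 12 co-culture libraries of both models and 42.5% to 56.0% in the 12 controls. With the exon union as gene length the shares were 55.8% to 71.0% and 36.5% to 47.8%, again without overlap. This share was computed after the single-gene values were known and is given as a description.

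**Figure D4:**
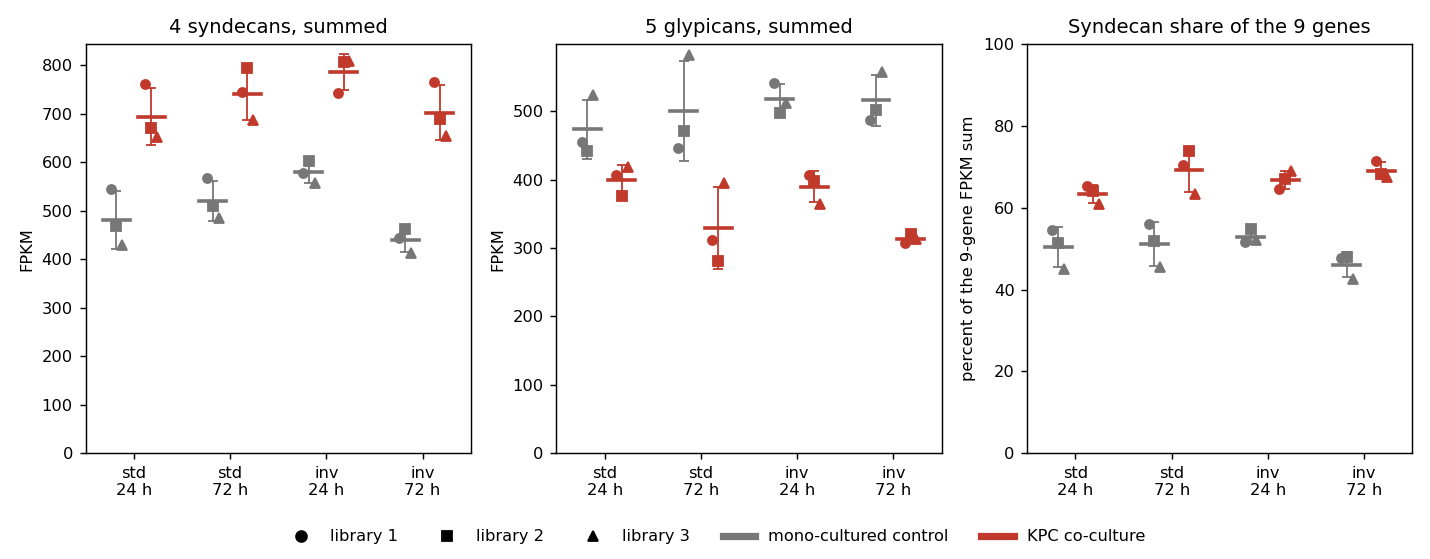
Summed FPKM of the 4 syndecans (left), of the 5 glypicans (middle) and the syndecan percentage of the 9-gene sum (right) in each library, standard (std) and inverse (inv) model after 24 h and 72 h, with mean and SD of 3 libraries. The share lies at 60.9% or above in all 12 co-culture libraries (red) and at 56.0% or below in all 12 controls (grey).

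Within the syndecans Sdc4 took 47.6% ± 3.85 (SD, n = 3) of the sum in the inverse co-cultures at 72 h and 29.1% ± 3.78 in the controls. The corresponding shares in the standard model were 48.5% ± 8.46 and 34.0% ± 9.95. Within the glypicans Gpc1 held 27.5% ± 2.02 in the inverse co-cultures at 72 h against 12.4% ± 2.15 in the controls, and Gpc3 held 40.0% ± 2.95 against 55.1% ± 5.99. The ratio of Sdc4 to Sdc2 in a library, which no scaling of libraries can alter, was 3.87 to 6.33 in the inverse co-cultures at 72 h and 1.51 to 2.61 in the controls.

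The difference between the co-culture effects of both models was tested. It cannot isolate distance, since RNA input, plating medium and time shared with KPC cells differ between the models too. None of the 9 genes was called at 24 h or at 72 h, and neither was any of the 14452 genes tested (0% at both times, with 182 and 501 genes at an unadjusted p under 0.05). For Sdc4 the inverse effect minus the standard effect was 0.03 (95% interval −0.54 to 0.60) at 24 h and 0.33 (−0.24 to 0.90) at 72 h. For Gpc3 it was −0.09 (−1.05 to 0.88) and −0.48 (−1.45 to 0.49), and for Gpc4 −0.37 (−1.54 to 0.81) and 0.12 (−1.05 to 1.29). The intervals leave room for differences of up to about 1 log2 unit or more for these glypicans. They come from a fit without the replicate block, which counts offsets shared by same-numbered standard libraries as spread. Hence a call in the inverse model and none in the standard model is not shown to be a difference between them. The controls of both models were also compared: none of the 9 genes was called at 24 h or 72 h (background 0% each, 0 of 12903 and 0 of 13106 genes).

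Times were also compared in the inverse mono-cultures, where the count of members called was near the share over all genes. In the inverse controls 2516 of 13092 genes (19.2%) were called between 24 h and 72 h, and 2 of the 9 genes were among the 9.05% called lower. Sdc4 fell from 186, 192 and 183 FPKM to 149, 123 and 112 FPKM (log2 −0.55 ± 0.11 SE, adjusted p = 0.0108). Gpc4 fell from 128, 113 and 109 FPKM to 64.3, 86.4 and 76.1 FPKM (log2 −0.63 ± 0.12 SE, adjusted p = 0.0096). Neither gene's values overlapped between the times. Markers of other cells moved over the same interval, and their part was not tested: 4 of 5 adipocyte markers tested (median log2 1.49) and 5 of 7 macrophage markers (median 1.08) were called higher, and of 10 fibroblast or stellate markers 4 were called lower (Acta2, Des, Thy1 and Vim) and 1 higher (Pdgfra). The calls of Sdc4 and Gpc4 held without any single library, which was not examined for the markers. Gpc1 (log2 −0.38, adjusted p = 0.0556) was called without 24 h library 3 (0.0418) or 72 h library 2 (0.0384), and Gpc3 (log2 0.28, adjusted p = 0.154) without 72 h library 2 (0.0474).

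In the inverse co-cultures none of the 9 was called over time (1 gene of 12758, 0.00784%), and Sdc4 differed by 0.18 (interval −0.20 to 0.56). The 72 h effect minus the 24 h effect in the inverse model was 0.73 ± 0.21 SE for Sdc4 (unadjusted p = 0.00397, adjusted p = 0.26) and −0.72 ± 0.20 SE for Gpc3 (unadjusted p = 0.00333, adjusted p = 0.254). Neither passed, and none of 13722 genes did (0%, smallest adjusted p 0.0595, 1471 genes at an unadjusted p under 0.05). In the standard model no member was called over time in the controls (0% of 12963 genes), in the co-cultures (0% of 12805) or in the difference of effects (0% of 13694). The replicate block, which pairs those libraries over time as well, also called none (0% in either). With it Sdc4 in co-culture differed by 0.50 ± 0.13 SE (adjusted p = 0.365, higher at 72 h in 3 of 3 pairs), Gpc1 by −0.46 ± 0.09 SE (0.330) and Gpc4 by −0.70 ± 0.17 SE (0.365), both lower in 3 of 3. Without the block 127, 467 and 141 genes had an unadjusted p under 0.05.

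The genes that build, trim and use the heparan sulfate chains were counted from 8 lists of 96 genes in all. In the inverse model 7 of 78 tested were called at 24 h (4 higher, 3 lower) and 18 of 76 at 72 h (6 higher, 12 lower), beside 2.47% and 12.8% of all genes. Their median log2 fold change was −0.04 and −0.14, near the −0.06 and −0.16 of all genes. For standard co-culture none of 79 and 75 tested was called. The lists were chosen with earlier results of these data known, so the counts are descriptions.

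Of the chain synthesis genes 2 of 8 chain enzymes were called lower and 1 of 8 precursor genes higher in the inverse model at 72 h, beside 12.8% of all genes, and none was called at 24 h. None of the 7 linker enzymes tested was called at either time in the inverse model. Of 8 chain polymerases and N-sulfotransferases tested, Extl3, which starts heparan sulfate chains, fell at 72 h (57.0, 61.5 and 52.2 FPKM in co-culture against 82.7, 84.4 and 85.4 FPKM, log2 −0.56, adjusted p = 0.0126). Ndst3, an N-deacetylase and N-sulfotransferase present at 0.212 to 2.20 FPKM in these libraries, fell as well (log2 −1.53, adjusted p = 0.0212). Among 8 genes of precursor supply Ugdh, which makes the UDP-glucuronic acid for the chains, rose at 72 h (59.7, 57.3 and 51.1 FPKM against 42.2, 39.1 and 42.6 FPKM, log2 0.43, adjusted p = 0.0321). None of the 4 secreted heparan sulfate proteoglycans was called.

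Sulfation and editing genes moved in opposite directions. The extracellular 6-O-endosulfatase Sulf1 rose at 24 h (161, 166 and 203 FPKM against 95.7, 90.6 and 84.6 FPKM, log2 0.96, adjusted p = 0.00725) and at 72 h (227, 237 and 182 FPKM against 159.8, 128 and 125 FPKM, log2 0.64, adjusted p = 0.0282). Its relative Sulf2 fell at 72 h (118, 151 and 65.5 FPKM against 327, 283 and 289 FPKM, log2 −1.50, adjusted p = 0.0153). The 6-O-sulfotransferase Hs6st1, whose product the sulfatases act on, rose at 72 h (27.4, 27.5 and 33.7 FPKM against 17.5, 15.9 and 16.2 FPKM, log2 0.81, adjusted p = 0.00843). The 3-O-sulfotransferase Hs3st1 rose at 24 h (7.83, 6.63 and 6.87 FPKM against 2.38, 2.80 and 1.46 FPKM, log2 1.52, adjusted p = 0.0159). These 4 genes account for all calls among the 7 of 15 listed genes that passed the filter. At 24 h 2 were called higher, beside 1.08% of all genes. At 72 h 2 were called higher and 1 lower, beside 3.27% and 9.57%.

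Of the sheddases and glypican-cleaving enzymes 13 were tested at 24 h and 11 at 72 h. The proprotein convertase Pcsk5 rose at 24 h (15.5, 16.0 and 18.7 FPKM against 8.38, 8.31 and 5.88 FPKM, log2 1.12, adjusted p = 0.0159), and the protease Adamts1 fell (log2 −0.72, adjusted p = 0.0168). No other gene of this list was called at 24 h, beside 1.08% of all genes called higher and 1.39% called lower. At 72 h Adam17, a main sheddase of cell-surface proteins, fell (22.3, 26.7 and 23.9 FPKM against 41.3, 39.0 and 49.4 FPKM, log2 −0.82, adjusted p = 0.00936). Mmp14, a membrane metalloprotease, fell too (466, 499.5 and 435 FPKM against 646, 815 and 739 FPKM, log2 −0.65, adjusted p = 0.0185), as did Mmp15 (log2 −1.51, adjusted p = 0.0127). These 3 of 11 tested were the calls at 72 h, beside 9.57% of all genes called lower and 3.27% called higher, and shedding itself was not measured.

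Among 11 tail partners of the syndecans the actin cross-linkers Actn4 (log2 −0.65, adjusted p = 0.0176) and Actn1 (log2 −0.59, adjusted p = 0.0417) fell at 24 h, and none was called at 72 h. At 24 h 1.39% of all genes were called lower and 1.08% higher. Of 20 ligands tested, Fgf2, a growth factor that needs heparan sulfate to engage its receptor, rose at 24 h (374, 347 and 485 FPKM against 233, 232 and 206 FPKM, log2 0.83, adjusted p = 0.0187). Fgf2 was called at 72 h as well (log2 0.91, adjusted p = 0.00575). At that time 9 of 20 ligands tested were called, 3 higher and 6 lower, beside 3.27% and 9.57% of all genes. The 6 with the largest change were Vtn (log2 −2.22), Tnc (1.55), Fn1 (1.51), Bmp4 (−1.50), Bmp2 (−1.33) and Lpl (−1.32), with adjusted p between 0.00475 and 0.0301. Fibronectin (Fn1), the matrix ligand that Sdc4 binds in focal adhesions, went from 3249, 3618 and 2992 FPKM in the controls to 9086, 8873 and 10101 FPKM.

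**Figure D5:**
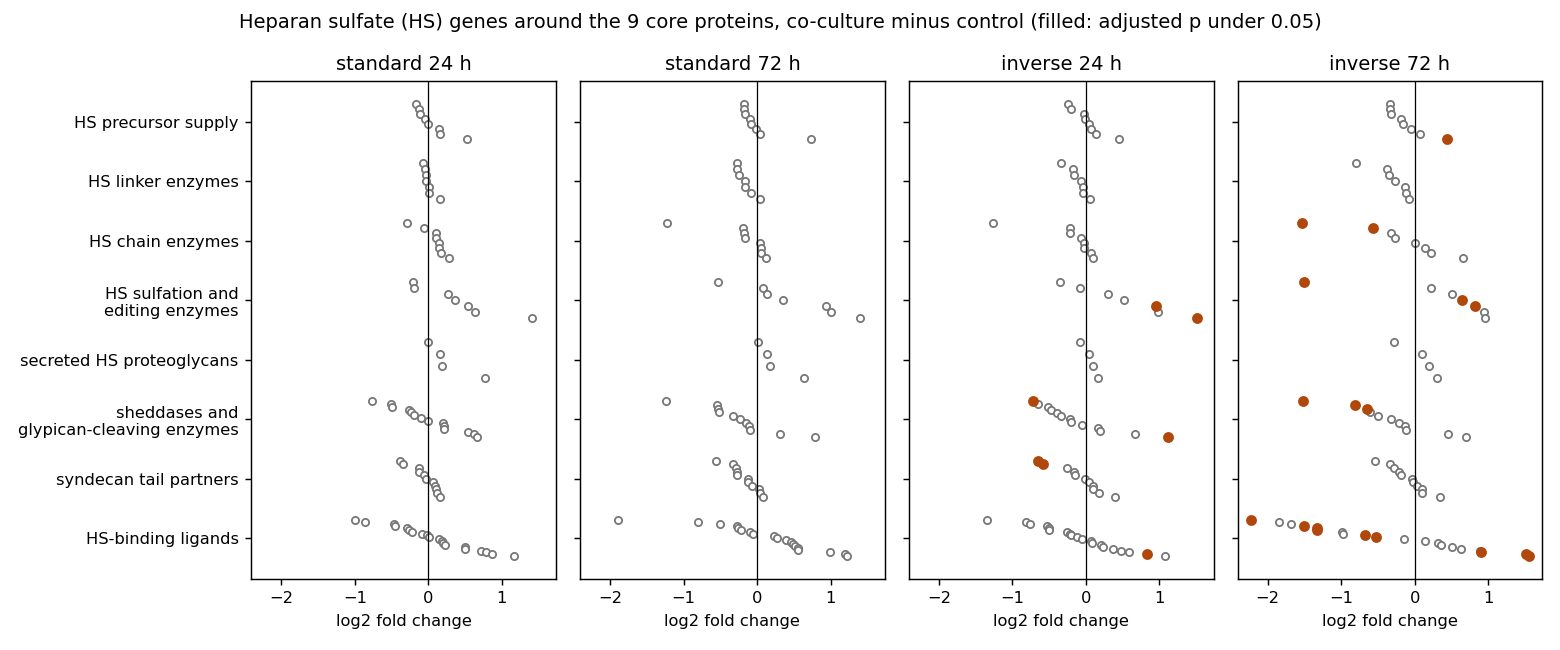
Log2 fold change of co-culture over control (horizontal axes) of every tested gene in 8 lists around heparan sulfate (HS), 1 panel per comparison and 1 circle per gene, filled where the adjusted p is under 0.05. Filled circles number 7 in the inverse model at 24 h and 18 at 72 h, and none occurs in the standard panels, and the sulfation and editing row holds called genes on both sides of 0 at 72 h.

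For the 5 genes called in a co-culture comparison, the genes with the most similar profile over the 24 libraries were listed by Pearson r among 14452 genes. Points share group and library, so r is a description. Sdc4 was most like Tnfaip6 (r = 0.922), Mcfd2 (0.914) and Chrdl2 (0.884), and Gpc1 most like Plod3 (0.914), Slco2a1 (0.908) and Tpbg (0.894). Gpc3 was most like Hsd17b11 (0.96), Plxdc2 (0.954) and Thrb (0.953). Gpc4 was most like Actn4 (0.962), Hspb6 (0.957) and Aff3 (0.957), and Gpc6 most like Fras1 (0.901), Kidins220 (0.892) and Tnks (0.89). After each group's mean was removed, r of Gpc4 with Actn4 was 0.958 and of Gpc3 with Hsd17b11 0.955, and for Sdc4 it was 0.849 with Tnfaip6, 0.469 with Mcfd2 and 0.566 with Chrdl2. Library 1 of the standard model was high in both Gpc4 and Actn4, with 183 and 1086 FPKM in the 24 h control against 57.2 and 435 FPKM in library 2.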

How the data were processed

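Poly(A) RNA of PSC from 24 libraries in 8 groups of 3 was sequenced. The authors deposited 1 table of FPKM values per gene and library. The submitters' processing notes name CASAVA, HISAT2 2.0.5, featureCounts 1.5.0-p3, DESeq2 1.20.0 and the build GRCm38 (mm10), and strand was not used in counting. Groups and replicate numbers came from the sample titles. The genotype of the KPC line is given in part, and the remainder is not reported here. The study's methods call the replicates biological, without saying whether each was a separate isolation of PSC, so p-values measure the spread between these libraries.

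Genes above 1 FPKM in at least 3 libraries of a comparison were tested on log2(FPKM + 0.5) with limma 3.58.1 (R 4.3.3, moderated test with intensity trend), Benjamini-Hochberg adjusted over all genes tested and called at an adjusted p under 0.05. Fold changes are on that scale and understate changes of low genes. Differences between models were fitted over all 24 libraries. FPKM times gene length (mean transcript length, GENCODE M21) gave whole fragments within 0.02 for 93.81% to 94.86% of low values, so depth could be recovered (15932732 to 24798759 fragments) and voom run as an alternative. Same-numbered standard libraries deviated together (correlations 0.478 to 0.823 for co-culture against control), so blocked values are given for that model. Same-numbered inverse libraries did not deviate together (−0.171 to 0.103). The code was tested on simulated data. Figures were drawn with matplotlib 3.10.9, and tables with Python 3.11.15, numpy 2.4.6 and pandas 2.3.3. Promoters came from RefSeq (GRCm38.p6).

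The 9 genes and the gene lists were chosen with earlier results of these data known. Named are the 9 genes, up to 6 called genes per heparan sulfate list and comparison, and the 3 genes most like each called member. Alternatives were other pseudocounts (0.1 and 1), filters, scalings and models, and leaving out each library.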

Additional observations from a re-analysis of the deposited data

How the results depend on the processing

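Over 144 alternatives of the 9 called values of the 9 genes, none changed sign and 109 stayed called. In the inverse model at 24 h, 3 of the 9 genes were called, beside 2.47% of all genes. It was 1 of the 9 without a filter, 1 with quantile normalization, 1 without the intensity trend and 0 with all 24 libraries in 1 fit. Counts over all genes without a filter, without the trend and in 1 fit are given below. None is given for quantile normalization, so that member count has no background beside it. Leaving out each library gave 1 to 4 of the 9, beside 67 to 412 of all genes. At 72 h, 4 were called (12.8% of all genes), 2 with all 24 libraries in 1 fit and 2 to 6 without single libraries (368 to 1637 of all genes). Over time in the inverse controls 2 were called (19.2% of all genes), 0 with all 24 libraries in 1 fit and 2 to 4 without single libraries (1243 to 2369 of all genes). In the standard model at 72 h Sdc4 passed in the fit of all 24 libraries (adjusted p = 0.0222) and not in the separate fit. The cause of these shifts was not tested.

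With the replicate number as a block, 2 of the 9 genes were called in the standard model at 24 h, beside 1.22% of all genes, and 1 in the inverse model at 24 h. Over time in the inverse controls Sdc1 and Gpc1 passed with the block in addition to Sdc4 and Gpc4. The fit without the block called 19.2% of all genes there. The share with the block is not given, so the added calls cannot be read against a background. Same-numbered inverse libraries did not deviate together, and the block took the genes called in that model at 24 h from 317 to 88. At 72 h it took them from 1678 to 902. For the standard model at 24 h it took them from 0 to 157. With the block within each model, 16 genes and 0 of the 9 were called in the difference between models at 72 h, a setting chosen after seeing the data.

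Counts over all genes moved as well. At 24 h in the inverse model they were 50 without a filter, 98 without the intensity trend, 520 with voom on recovered fragments, 11 with all libraries in 1 fit and 67 to 412 without single libraries (lowest without control library 1, 2 or 3 or co-culture library 2). At 72 h they were 888 without a filter, 897 with all libraries in 1 fit and 368 to 1637 without single libraries (lowest without co-culture library 1 or control library 1, 2 or 3). Over time in the inverse controls 2516 became 1425 without a filter, 225 with all libraries in 1 fit and 1243 to 2369 without single libraries (lowest without a control library numbered 1 or the 24 h control library 2). Depth limits Gpc2 alone among the 9, at 22 to 132 fragments per library.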
